A study of Brassica rapa subsp. pekinensis with 6 samples.

Results

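The genes described here are the Bra gene models with the strongest gain of transcript in the flower buds of male-sterile Chinese cabbage (Brassica rapa subsp. pekinensis). They were chosen by their measured levels: a mean of at least 2 raw CPM (the gene's count per 1000000 counted reads of its library) in sterile buds, and a mean at least 8 times that of fertile buds. Of 41019 Bra identifiers 139 met both thresholds, which is 0.339% of them and 0.571% of the 24341 that reached the sterile minimum. All 6 libraries were made from buds of the genic male-sterile line AB01, 3 of the genotype labelled fertile and 3 of the genotype labelled sterile. The study's title gives the sterility as inherited through multiple alleles, and its design text calls the replicates biological. Plants were grown in a greenhouse after vernalization. The sources used here do not give the bud stage, the plant age or the number of plants behind a library.

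In genic male sterility a nuclear locus stops the anther from forming functional pollen, while the other floral organs usually develop. The tapetum, the nursing layer of the anther, and the microspores within it normally supply a large and specific share of a bud's transcripts. A whole bud also contains sepals, petals, carpels with ovules, nectaries and stem tissue. In bulk buds, a change in the number of cells of a type and a change in RNA per cell cannot be told apart.

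The 2 tables pair no Bra identifier with a gene name. A RefSeq gene table of Brassica rapa matched 0 of the 139 identifiers, so the members are described by identifier, level and coding length, and no function, marker gene or pathway is assigned to any of them. For the same reason the labelled tissue could not be checked against marker genes, and no sequence is shown. Library totals ran from 27637426 to 35564895 counts in fertile buds and from 31893913 to 33615379 in sterile buds.

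Each of the 139 members had every sterile library above every fertile library, as did 60.8% of the Bra genes tested, in the same direction. All 139 also passed the low-count filter and passed 0.05 in Benjamini-Hochberg adjusted p, as higher in sterile buds, in edgeR's quasi-likelihood test of 3 against 3 libraries, against 29.2% of all genes tested (9685 higher, 11027 lower). With libraries scaled to their totals alone, as in raw CPM, 59.1% of all genes tested were called higher (19608 higher, 6854 lower). The same libraries chose the members, so these counts describe them and test nothing. The scale matters to who is counted. Raw CPM is relative to the library total, and scaling by TMM (trimmed mean of M values, with factors of 0.898 to 0.91 in fertile and 1.1 to 1.12 in sterile libraries) multiplied every fold by about 0.815. On that scale 82 of the 139 kept a fold of at least 8 and a sterile mean of at least 2, no other gene joined them, and the lowest fold of any member was 6.53.

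The members were mostly genes of low to moderate level that were scarce in fertile buds. Their median was 0.57 raw CPM in fertile buds and 7.47 raw CPM in sterile buds, with sterile quartiles of 3.71 and 22.5. The sterile mean was at least 100 raw CPM in 6 genes, 10 to 100 in 55, 5 to 10 in 28 and 2 to 5 in 50. Fertile buds held a mean below 1 raw CPM of 91 members and at least 10 raw CPM of 6. A count was present in every fertile library for 133 members, so most were detected in fertile buds too.

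**Figure D1:**
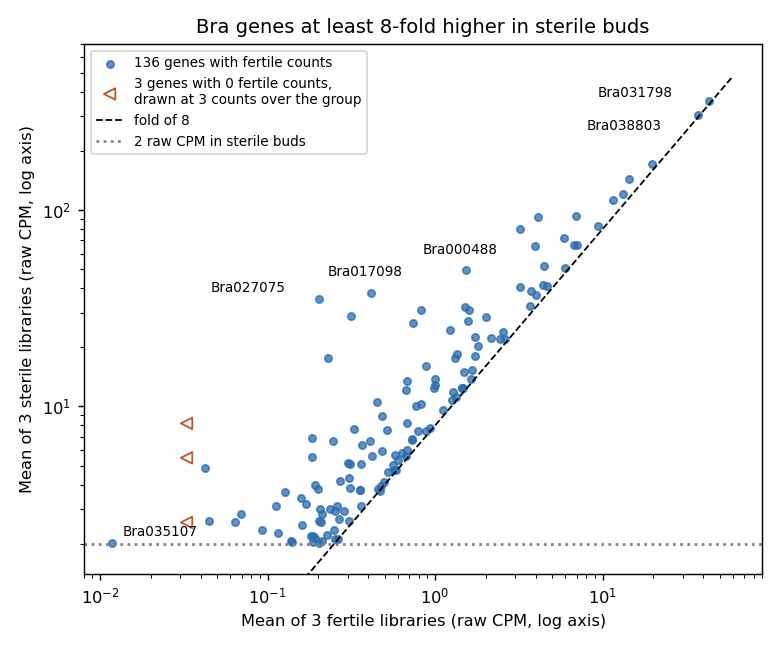
Mean raw CPM of each of the 139 genes in fertile buds (x axis) and sterile buds (y axis), both on log axes, with the dashed line at a fold of 8 and the dotted line at 2 raw CPM. Genes crowd along the fold line at all levels, and the genes furthest above it lie at fertile means below about 2 raw CPM.

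Folds were concentrated near the threshold. The median fold was 12.2. It lay between 8 and 10 in 52 members, between 10 and 16 in 44, between 16 and 32 in 27, between 32 and 100 in 10, and above 100 in 3. The other 3 had no fertile count and so no measured fold. Summed over members, fertile libraries held 0.0297% ± 0.00116 of their counts in these genes and sterile libraries 0.328% ± 0.00139 (SD, n = 3 each). The 8 most abundant members held 42.5% of the sterile sum and the top 2 alone 20.2%. The 78 members below 10 raw CPM in sterile buds held 10.2% of it.

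Bra031798 was the most abundant member by count. It stood at 43.6, 40.9 and 45.6 raw CPM in fertile replicates 1 to 3 and at 332.6, 377.7 and 369.3 in sterile replicates 1 to 3, a fold of 8.3. The lowest sterile library was therefore 7.3 times the highest fertile one. Bra038803 had fertile values of 39.4, 29.3 and 43.1 raw CPM and sterile values of 317.0, 303.2 and 289.8, a fold of 8.14. Relative to the mean its fertile libraries spread more than its sterile ones, with fertile replicate 2 the lowest, and with any single library left out the fold ran from 7.36 to 8.83. Both genes were well expressed in fertile buds too, and both lay near the fold threshold: with TMM scaling their folds were 6.76 and 6.63.

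Of the next genes by level, Bra029174 rose from 19.7 ± 0.884 to 171.6 ± 8.31 raw CPM (SD, n = 3 each) and Bra010292 from 14.3 ± 0.368 to 143.9 ± 2.91. Bra040941 went from 13.3 ± 0.499 to 120.6 ± 3.5 raw CPM and Bra031207 from 11.5 ± 0.853 to 112.2 ± 7.57. These 4 genes had folds of 8.7 to 10.1 and non-overlapping libraries with little spread in either group. Bra012342 and Bra026124 combined a high level with a larger fold. The first rose from 6.97 ± 0.173 to 93.3 ± 3.18 raw CPM, 13.4-fold, and the second from 4.12 ± 0.403 to 91.6 ± 3.54 raw CPM, 22.2-fold.

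Other members were nearly silent in fertile buds, with a few reads in each fertile library and a clear level in each sterile one. Bra017098 had 13, 13 and 11 fertile counts and 1226, 1297 and 1181 sterile counts, which is 0.413 ± 0.0902 against 37.9 ± 2.55 raw CPM and a fold of 91.7. Bra027075 had 8, 5 and 5 fertile counts and 1090, 1035 and 1319 sterile counts, a fold of 173.7 that ran from 151 to 221 when a library was left out. Fertile levels of such genes rest on few reads, and it is the fertile side that limits the precision of the fold. Bra015556 had 8, 8 and 13 fertile counts and 943, 813 and 1057 sterile counts, a fold of 91.9. Bra027056 had 4, 9 and 8 fertile counts and 613, 547 and 564 sterile counts, a fold of 76.9. With exact binomial 95% intervals on the summed counts, which cover counting error only, the pooled fold was 93.6 (67.8 to 133) for Bra017098, 179 (113 to 302) for Bra027075, 90.7 (63.0 to 136) for Bra015556 and 76.8 (50.1 to 124) for Bra027056.

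Fertile libraries held no read at all of 3 members. Bra027788 had 235, 320 and 246 counts in sterile replicates 1 to 3, or 8.2 ± 1.48 raw CPM. With the fertile level set at a floor of 3 counts summed over the fertile libraries (0.0328 raw CPM), its fold was 249.9. Bra011265 had 194, 152 and 189 sterile counts, or 5.47 ± 0.702 raw CPM, a fold of 166.7 over that floor. Bra002731 had 78, 113 and 59 sterile counts, or 2.57 ± 0.877 raw CPM, a fold of 78.2 over it. These folds over the floor are not lower bounds. The exact binomial intervals on the summed counts had lower limits of 203 for Bra027788, 135 for Bra011265 and 62.9 for Bra002731. None of the 3 exceeded 10 raw CPM in any sterile library. Bra035107 had a single fertile count, in replicate 2, and 68, 72 and 57 sterile counts. Its pooled fold was 184 with an interval of 32.7 to 7310, and with its fertile level set at the floor of 3 counts the fold was 61.5. Bra019895 had 0, 2 and 2 fertile counts and 149, 147 and 177 sterile counts, a fold of 114.1 that ran from 76 to 172 when a library was left out.

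**Figure D2:**
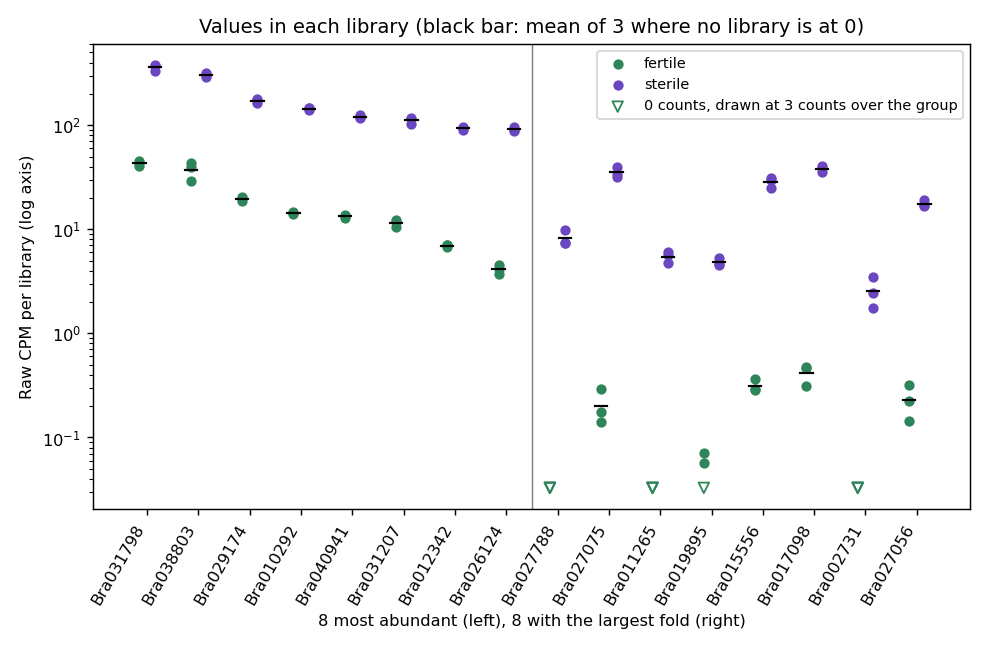
Raw CPM (log axis) in each of the 3 fertile and 3 sterile libraries for the 8 most abundant members and the 8 with the largest folds (fertile means set at no less than 3 counts over the group), with fertile libraries at 0 counts drawn as open triangles at 0.0328 raw CPM. Fertile values of the abundant genes lie between 3.7 and 45.6 raw CPM, while those of the right-hand genes lie below 0.5, and no gene's groups overlap.

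Both thresholds cut through a continuous range of values. Just inside a fold of 8 were Bra015306 at 8.01 and Bra002499 at 8.02, and just outside were Bra000309 at 7.998 and Bra006771 at 7.98. Just inside the sterile minimum were Bra018320 at 2.01 raw CPM and Bra035107 at 2.02, and just outside were Bra039338 at 1.99 and Bra008151 at 1.92. The values on both sides of each threshold are nearly the same.

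To read the gain in libraries that had no part in the choice, the thresholds were applied to 2 replicate numbers of each group and the fold was taken from the fertile and sterile libraries left out. Leaving out replicate 1, 130 genes were chosen and all 130 were higher in the left-out sterile library than in the left-out fertile one, 112 of them (86.2%) by at least 8-fold. Leaving out replicate 2, 133 genes were chosen, all of them were at least 4-fold higher in the left-out pair, and 113 (85.0%) reached 8-fold. Leaving out replicate 3, 142 genes were chosen, 141 were at least 4-fold higher, and 113 (79.6%) reached 8-fold. Genes with 0 counts in the left-out fertile library, 5, 3 and 4 in the 3 rounds, were counted as reaching each of these folds. A higher sterile value is in itself common: 60.8% of the Bra genes tested had every sterile library above every fertile one. That share is for all 6 libraries. The share of all Bra genes that reach each fold in a left-out pair was not computed. The median fold of the chosen genes was 12.4, 12.4 and 11.9 in the libraries that chose them and 12.4, 11.5 and 11.5 in those left out.

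The lowest fold in left-out libraries was that of a gene that is not a member. Bra028087, named here after its values were seen, had 4.16, 10.1 and 13.1 raw CPM in fertile replicates 1 to 3 and 13.5, 106.0 and 21.4 in sterile replicates 1 to 3. Sterile replicate 2 alone was high. Chosen on replicates 1 and 2, the gene had a fold of 1.63 in replicate 3, and over all 6 libraries its fold was 5.16.

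**Figure D3:**
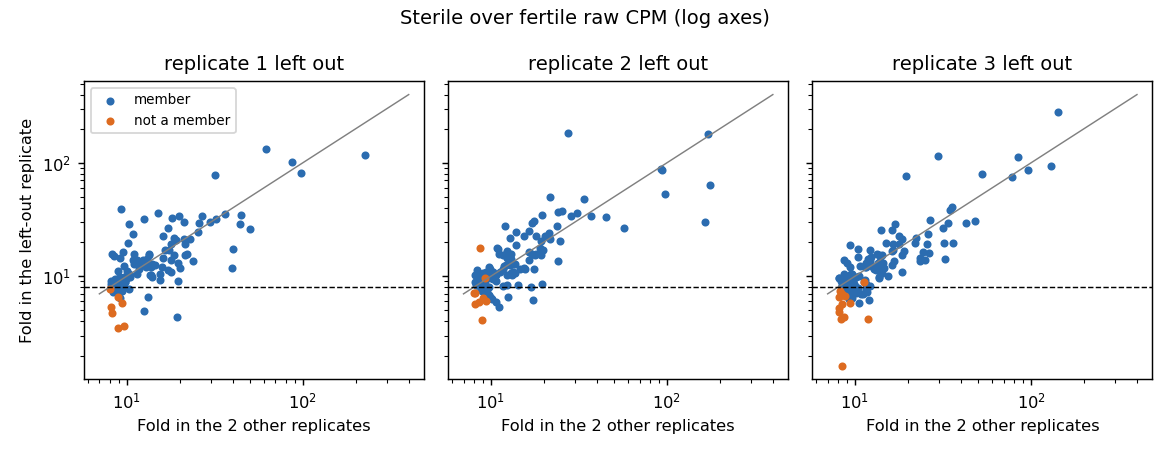
Fold of sterile over fertile raw CPM in the replicate left out (y axis) against the fold in the replicates that chose the genes (x axis), on log axes, with the dashed line at 8 and the grey line at equality. Points scatter about equality, those below 8 come mostly from genes chosen at folds close to 8, and genes with no fertile count in a left-out or choosing library are not drawn.

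No single sterile library carried the gain. Sterile replicate 1 was the highest of the 3 for 49 members (35.3%), replicate 2 for 47 (33.8%) and replicate 3 for 43 (30.9%). Among the other 24202 Bra genes with a sterile mean of at least 2 raw CPM, the shares were 33.3%, 38.6% and 28.1%. The lowest sterile library was at least 5 times the highest fertile library in 135 members and at least 8 times in 91. The smallest such ratio, 4.33, was that of Bra030113, with 12, 3 and 5 fertile counts and 60, 90 and 66 sterile counts. The 3 members with 0 fertile counts were counted as passing both ratios. The ratios use the libraries that chose the members, so they describe the members and test nothing.

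The spread between sterile libraries shrank with level. Expressed as the SD divided by the mean, its median over members was 11.5% at 2 to 5 raw CPM, 9.04% at 5 to 10, 6.33% at 10 to 100 and 4.66% at 100 and over. The other Bra genes of the same levels had medians of 9.52%, 7.12%, 4.83% and 4.34%. The counting error of a gene was taken as the inverse square root of its mean sterile count. Its median was about 10.3%, 6.87%, 3.59% and 1.4% for the members, and about 9.7%, 6.48%, 3.4% and 1.4% for the other genes. The median of an SD taken over 3 libraries tends to fall below the true SD. The observed medians therefore cannot be set directly against these values. Counting error was thus also slightly larger for the members in all but the highest class. The members' medians were above those of the other genes in each class, and no test was made of this difference.

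**Figure D4:**
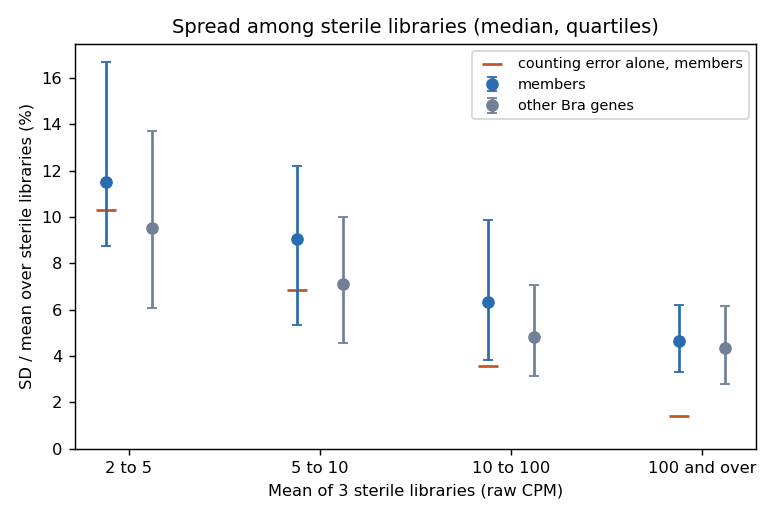
Spread among the 3 sterile libraries, as SD over mean in percent (y axis), by sterile level in raw CPM (x axis), with points at the median and bars from the lower to the upper quartile over genes, for members and for other Bra genes. The members' medians fall from 11.5% to 4.66% with level and lie slightly above those of the other genes, while the quartiles of both sets overlap.

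A spread of over 20% was found for 9 members. Bra002731 varied most, at 34.2%, followed by Bra006324 at 31.8%, Bra029306 at 29%, Bra002499 at 26.1% and Bra010039 at 24.6%. Sterile replicate 2 was the highest library for 4 of these 5 genes. Bra006324 had 55, 103 and 73 sterile counts against 4, 3 and 1 fertile counts, Bra029306 had 166, 292 and 210 against 16, 20 and 32, and Bra010039 had 204, 310 and 216 against 23, 24 and 25. In Bra002499 it was replicate 3, with 59, 56 and 92 sterile counts against 7, 4 and 14 fertile counts, and leaving out a library moved its fold between 6.51 and 10.7. In these genes too the lowest sterile library stayed above the highest fertile one, as in 60.8% of the Bra genes tested.

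The members were shorter gene models than the other Bra genes of at least 2 raw CPM in sterile buds. Their median coding length was 894 nt, with quartiles of 562.5 and 1231.5 nt, against 1134 nt with quartiles of 720 and 1680 nt. Models under 300 nt made up 9.35% of members (13 genes) and 3.19% of the others. Within classes of sterile level the members' medians were 829.5, 952.5, 939 and 616.5 nt from the lowest class to the highest, against 981, 1047, 1203 and 1125 nt. This is a description of the list, without a test. Both sets met the same minimum in CPM, and lengths are coding lengths.

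Per length, the order of the members changed. On the RPKM scale (read counts scaled to the length of the model and to the library total), which allows levels of different genes to be compared, Bra038803, a model of 420 nt, was the highest, at 88.7 ± 17 RPKM in fertile and 722.2 ± 32.4 RPKM in sterile buds (SD, n = 3 each). It ranked 2432 among 41015 Bra genes in fertile buds and 117 in sterile buds. Bra031207, of 240 nt, followed at 467.4 ± 31.5 RPKM in sterile buds, and Bra031798, of 966 nt, at 372.5 ± 24.8 RPKM. The next were the very short models Bra004062, of 201 nt, at 358.4 ± 28 RPKM in sterile buds, and Bra033686, of 195 nt, at 336 ± 32.9 RPKM. The means of these last 3 genes lay within about 1 SD of the next in the order, so their order is not resolved, whereas Bra038803 and Bra031207 stood apart from each other and from the rest.

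The longest members showed the reverse. Bra026124, of 4242 nt, reached 21.6 ± 0.834 RPKM in sterile buds although it was the eighth most abundant by reads, and Bra025424, of 4206 nt, reached 2.49 ± 0.108 RPKM with a fold of 23.2. The shortest were Bra002731, of 150 nt, and Bra026696, of 192 nt, which rose from 2, 6 and 7 to 74, 96 and 72 counts. In sterile RPKM no member was among the 100 highest Bra genes, 7 were among the 1000 highest and 23 among the 5000 highest, where fertile buds had 0 and 3. The median rank among 41015 Bra genes was 29023 in fertile and 16364 in sterile buds. The typical member thus stood in the lower part of the range in fertile buds and around its middle in sterile buds. Members were chosen for a rise of at least 8-fold, so higher ranks in sterile buds follow from the choice.

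Members tended to carry identifier numbers close to those of other members. Consecutive numbers were held by 8 members, in 4 pairs, which is 5.76% of members, and 0.653% of the other Bra identifiers lay that close to a member. Within 10 numbers of another member were 24 members (17.3%), forming 12 pairs, against 6.21% of other Bra identifiers, and within 50 numbers 53 members (38.1%) against 27%. Members were found in 40 of the 42 blocks of 1000 numbers, with 8 in the fullest, 37000 to 37999, where the mean was 3.31. Identifier numbers are not positions, and the tables give neither positions nor sequences that would show whether neighbours are copies of each other.

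**Figure D5:**
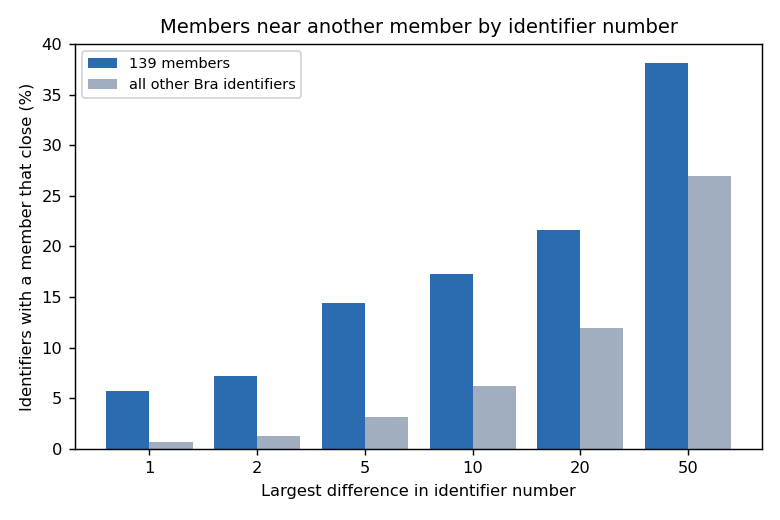
Share of identifiers (y axis, percent) that have a member within a given difference in identifier number (x axis), for the 139 members and for all other Bra identifiers. The shares differ most, in proportion, at consecutive numbers (5.76% against 0.653%) and draw closer by a difference of 50 (38.1% against 27%).

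The consecutive pairs were alike in some respects and not in others. Bra000488 and Bra000489, of 1128 and 1098 nt, had folds of 32.2 and 37.5 but stood at 43.9 ± 1.4 and 6.25 ± 0.507 RPKM in sterile buds. Their counts were 44, 39 and 58 against 1629, 1597 and 1611 for the first, and 8, 1 and 8 against 239, 208 and 224 for the second. Bra035108, of 1179 nt, rose from 19, 25 and 17 to 459, 391 and 462 counts, 19.6-fold, and reached 11.4 ± 1 RPKM in sterile buds, above its neighbour Bra035107, of 1128 nt, at 1.79 ± 0.252 RPKM. In both pairs, similar coding lengths thus came with sterile levels several times apart. Bra023816 and Bra023817, of 621 and 510 nt, stood at 4.18 ± 0.479 and 21.2 ± 0.852 RPKM in sterile buds with folds of 12.8 and 8.58. Bra016473 and Bra016474, of 513 and 1176 nt, had folds of 8.69 and 8.3 at 6.09 ± 1.03 and 3.36 ± 0.231 RPKM. Reads shared between near-identical copies may have been split in the authors' counting, so the separate values of neighbours that are copies would be uncertain, and this was not tested.

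Genes whose number is next to that of a member, but which are not members themselves, were also counted. Of 192 such genes tested, 64 (33.3%) were called higher in sterile buds by edgeR, against 29.8% of all Bra genes tested. Rises of at least 2-fold were called for 21 (10.9%), against 5.98%, and falls of at least 2-fold for 19 (9.9%), against 13.9%. Their median log2 fold change was 0.02, and that of all Bra genes tested 0.01. Within 50 numbers of a member 5.87% of 8479 genes rose at least 2-fold, close to the share over all Bra genes.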

How the data were processed

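Flower-bud RNA was sequenced in 3 fertile and 3 sterile libraries. Raw read counts per gene and RPKM values were deposited by the authors in 2 tables of the whole series, named as such per the file headers; table columns were matched to samples through the sample titles. The submitters' processing notes list Bowtie2 2.0.6 and TopHat2 2.0.9 without saying what each did. Which program counted the reads, whether it used strand, and on which build and annotation, is not stated in these sources, so reads of a gene and of an antisense or overlapping partner cannot be separated. RPKM served for coding lengths and for levels compared between genes: count divided by RPKM returned one length per member, and all 139 were multiples of 3.

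Members were chosen on raw CPM, count over column sum. The members, lists and comparisons were chosen with earlier results of these data known. Counts were fitted in R 4.3.3 with edgeR 4.0.16 over 33150 genes, and with DESeq2 1.42.0 as an alternative. The edgeR fit used filterByExpr, TMM, the quasi-likelihood test, no replicate term and Benjamini-Hochberg adjusted p under 0.05. The edgeR test was also run on simulated counts in which few genes changed. That run does not cover the many changes between these groups. Named genes are the 8 highest in sterile raw CPM, the 8 of largest fold (fertile mean set at no less than 3 counts over the group), those at 0 fertile counts, the nearest to each threshold, the 5 of largest spread, the consecutive pairs, the longest and shortest, and the 5 highest in RPKM. Bra030113 and Bra028087 were added after their values were seen. A count of 3 corresponds to 0.0844 to 0.109 raw CPM per library; such floors cover counting error only. RefSeq names come from a table of assembly CAAS_Brap_v3.01.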

Additional observations from a re-analysis of the deposited data

How the results depend on the processing

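The number of members depended on the scaling and on the thresholds. It was 82 with TMM and 81 with DESeq2 size factors, 422 at a fold minimum of 4, 43 at 16, 89 at a sterile minimum of 5 CPM, and 85 when the lowest sterile library had to reach both 2 CPM and 8 times the highest fertile one. Their share of sterile counts (0.328%) was then 0.155%, 0.149%, 1.18%, 0.0746%, 0.313% and 0.193%, and it was 0.241% with upper-quartile factors, 0.333% at a sterile minimum of 1 CPM and 0.32% with medians. Each of these shares summed the raw CPM of the genes that passed that setting, so it changed only with the list of genes. With a single library left out there were 135 to 141 members and a share of 0.318% to 0.35%. The median spread among sterile libraries was 6.75% in members of at least 5 CPM. The median coding length of members was 240 nt below that of the comparison genes (a difference of -240 nt), -126 nt against all Bra genes with a count, and -366 nt with RPKM in place of CPM; the cause was not tested. Members with another member within 5, 10, 20 and 50 numbers numbered 20, 24, 30 and 53, distances added after seeing the data. All 139 members were called higher under each alternative fit, DESeq2 and each left-out library included. Genes called higher ran from 8133 of 38031 tested with DESeq2 to 19608 of 33150 with library size alone. The same libraries chose the members, so the count of members called tests nothing. Genes called in either direction ran from 18883 with DESeq2 to 26462 with library size alone. A replicate block gave 21212 genes in place of 20712 and the same 139 members. Deviations of same-numbered libraries from their group means correlated at 0.0213, -0.0348 and 0.0973, and only number 3 was its own best match. With 3 libraries per group, these values cannot show whether same-numbered libraries share a batch or a pairing. No fold of the 31 named members with fertile counts fell below 1 in the alternatives run. The choice required a fold of at least 8, so this outcome was nearly fixed and tests nothing. Without a library, the fold of Bra019895 ran from 76 to 172, and that of Bra035107 (171) from 114 to 185. Bra035107 had no fold without fertile replicate 2, which holds its single fertile count. No other named member's fold moved by over 1.5 times. Depth limits the fertile side: 50 members had fewer than 30 fertile counts in all.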

Other observations

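The same thresholds applied to the 2335 identifiers outside the Bra set gave 19 gene models, 4 of them with 0 counts in the fertile libraries. With the groups exchanged, 1762 Bra genes had a fertile mean of at least 2 raw CPM and at least 8 times the sterile mean.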
